A study of Mus musculus with 12 samples.

Results

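Tumours grown from NIC cells that overexpress p66ShcA and had been selected for aggressive growth were compared with tumours grown from NIC cells with neither change, over all genes of the deposited count table. The comparison used 3 p66High aggressive tumours and 3 p66Low parental tumours of the 12 tumours in the series, and 19370 of 39017 genes had enough reads to be tested. NIC cells are a mouse mammary cancer line that is positive for ErbB2 and lacks p66ShcA, per the series' design text. The p66High cells were engineered to make p66ShcA constitutively, and the p66Low cells were their counterparts. The aggressive cells came from serial passage in mouse mammary fat pads followed by return to culture, and the submitters describe them as faster growing and more metastatic than the parental cells. All hosts were female FVB/N mice aged 8 to 12 weeks that received 250000 cells in the fourth mammary fat pad, suspended in PBS and matrigel. The other 2 groups, p66High parental and p66Low aggressive with 3 tumours each, carry 1 of the 2 changes. They entered the fit to estimate the spread, and their levels are given beside some results. Because both changes separate the 2 groups compared here, the part of each in a difference cannot be told apart within this comparison. The labels do not say how many selected lines or clones were used, nor whether each tumour came from its own mouse, and p-values therefore measure the spread between these tumours and no more. Titles of p66High aggressive replicates 1 and 2 share the number 185, and the labels do not say what it marks.

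Shc1 encodes adaptor proteins that bind activated receptor tyrosine kinases such as those of the ErbB family. The shorter Shc1 isoforms recruit Grb2 and Sos and so feed the Ras and ERK pathway. The longest isoform, p66ShcA, carries an extra amino-terminal region and is known for a role in mitochondrial oxidative stress. ErbB2 is a receptor without a known ligand that signals as a partner of other ErbB receptors, and its amplification drives a class of human breast cancers.

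Total counts were 38.4, 25.3 and 24.7 M reads in the p66High aggressive tumours and 38.6, 25.8 and 38.7 M reads in the p66Low parental tumours. Levels below are CPM, counts scaled to library size after TMM (trimmed mean of M-values) normalization, and fold changes are log2, p66High aggressive over p66Low parental, with the standard error (SE). Pairs of tumours within these groups differed by more than sampling noise, with a chi-square per degree of freedom of at least 22.9. A pair of libraries stood apart. On the leading principal component of all 12 tumours, p66High aggressive replicate 3 (-87.0) was the farthest of the 6 compared from the others. The values were -19.7 and -33.7 in the rest of its group and -22.7, -34.6 and -36.8 in the p66Low parental tumours. The p66Low aggressive tumours lay toward the other end of this component (97.6, 109 and 39.2). p66Low parental replicate 2 held 22262 CPM of the annotated gene Gm26924, against 1150, 877 and 1012 CPM in the p66High aggressive tumours and 778 and 969 CPM in the other p66Low parental tumours. Both were kept.

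Shc1 (ENSMUSG00000042626, mm10 chromosome 3, 89418443 to 89430027, plus strand) followed the labels. Its level was 237, 246 and 774 CPM in the p66High aggressive tumours, against 65.0, 59.0 and 69.4 CPM in the p66Low parental tumours. All p66High aggressive tumours lay above all p66Low parental tumours, and replicate 3 was more than 3-fold above the other tumours of its group. The log2 fold change was 2.70 (SE 0.38, edgeR adjusted p = 0.00108), and 1.90 (edgeR adjusted p = 1.53e-05) without replicate 3. The table has 1 count for all Shc1 isoforms, so p66ShcA could not be told from the shorter ones. Erbb2 (ENSMUSG00000062312, chromosome 11, 98412470 to 98437716) was at 66.4, 73.0 and 68.1 CPM in p66High aggressive tumours and 54.9, 89.6 and 57.6 CPM in p66Low parental tumours. These levels overlapped, and the log2 fold change was 0.04 (SE 0.18, edgeR adjusted p = 0.932).

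Of the 19370 genes tested, 2141 (11.1%) passed an edgeR adjusted p under 0.05, of which 1108 (5.72%) were higher and 1033 (5.33%) lower in p66High aggressive tumours. A change of at least 2-fold was seen in 837 of them, 370 higher and 467 lower. The 3 tumours of one group lay all above the 3 of the other for 2122 of the genes that passed, and for 5677 of all genes tested (29.3%). The median log2 fold change of all genes tested was -0.01. When each of the 6 tumours was left out in turn, 1054 genes (49.2% of those that passed) passed in all 6 fits, 567 higher and 487 lower, and 521 of these had changed at least 2-fold. The number that passed was 1348 without p66High aggressive replicate 2, 1360 without p66Low parental replicate 1 and 1423 without p66High aggressive replicate 1. Named genes below passed in all 6 fits unless the text says otherwise.

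**Figure D1:**
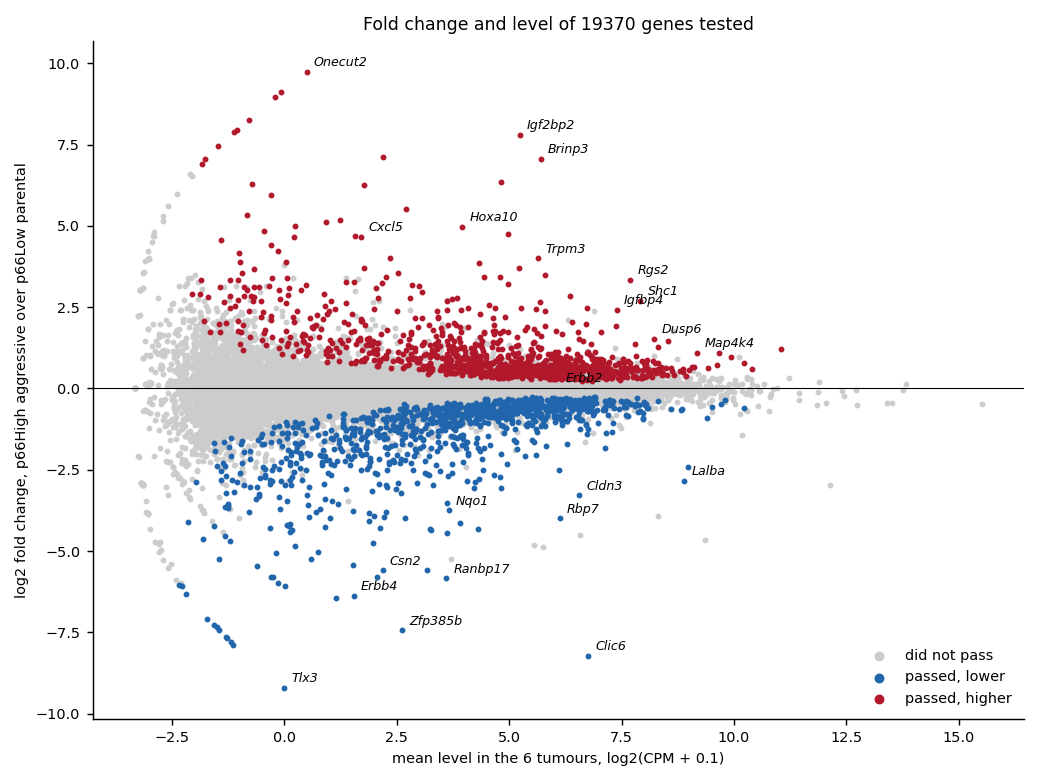
Each point is 1 of the 19370 genes tested. The horizontal axis is the mean level in the 6 tumours as log2(CPM + 0.1) and the vertical axis the log2 fold change, p66High aggressive over p66Low parental. Red and blue points passed an edgeR adjusted p under 0.05 as higher (1108) or lower (1033), grey points did not pass, and labels name genes described in the text. Erbb2 lies at the zero line, and Clic6, at -8.21, lies far below other genes of its level.

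Igf2bp2, an RNA-binding protein gene of the insulin-like growth factor 2 mRNA binding family (ENSMUSG00000033581, chromosome 16, 22059009 to 22163299, minus strand), was at 60.9, 67.7 and 95.2 CPM in p66High aggressive tumours, against 0.162, 0.406 and 0.442 CPM in p66Low parental tumours. It stood near the detection limit in the parental tumours and rose by 7.80 on the log2 scale (SE 0.38, edgeR adjusted p = 3.97e-06). Its mean level was 22.3 CPM in p66High parental and 4.03 CPM in p66Low aggressive tumours, so it lay above the p66Low parental level in both groups with a single change. Sox14, a transcription factor gene of neural development, rose by 6.26 (SE 0.64, edgeR adjusted p = 0.000434). Onecut2, a homeobox gene, was at 2.59, 2.16 and 3.11 CPM in the p66High aggressive tumours and had no count in any p66Low parental tumour, at least 87.4-fold higher with a floor of 3 counts over the parental group (edgeR adjusted p = 0.000297).

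Brinp3, a gene expressed mainly in the nervous system, was at 117, 116 and 76.7 CPM in p66High aggressive tumours, against 0.783, 1.5 and 0.208 CPM in p66Low parental tumours (log2 7.06, SE 0.43, edgeR adjusted p = 1.08e-05). The groups were far apart, and the mean of 112 CPM in p66High parental tumours against 0.188 CPM in p66Low aggressive tumours placed its high level in both groups with p66ShcA. Dlgap1, a scaffold gene of the postsynaptic density, rose by 7.11 (SE 0.65, edgeR adjusted p = 0.000105), and Slitrk1, a synaptic adhesion gene, by 4.68 (SE 0.61, edgeR adjusted p = 0.000752). Bspry was at 63.4, 62.1 and 54.4 CPM in p66High aggressive tumours, against 1.46, 4.83 and 0.780 CPM in p66Low parental tumours, and rose by 4.74. Chst9, a carbohydrate sulfotransferase gene, rose by 5.12 and Ppp1r36, a regulatory subunit gene of protein phosphatase 1, by 4.98. The embryonic globin gene Hbb-y was at 1.57, 1.81 and 1.21 CPM in p66High aggressive tumours and had no count in p66Low parental tumours, at least 51.1-fold higher, while the adult genes Hbb-bs and Hbb-bt did not pass (log2 0.36 and 0.52, edgeR adjusted p = 0.640 and 0.493).

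The Hox genes encode homeobox factors that set position along the body axis. Hoxa10 (ENSMUSG00000000938, chromosome 6, 52231197 to 52240854, minus strand), which the uterus and blood progenitors also use, was at 30.5, 29.3 and 29.9 CPM in p66High aggressive tumours, against 0.648, 1.22 and 1.01 CPM in p66Low parental tumours. The 3 aggressive tumours were nearly alike, and the log2 fold change was 4.97 (SE 0.27, edgeR adjusted p = 4.31e-06). Its mean was 1.09 CPM in p66High parental and 2.21 CPM in p66Low aggressive tumours, low in both groups with a single change. The rest of the Hox family was looked at after Hoxa10 was seen. Of 11 Hoxa genes that the table holds, 10 were tested, and 6 rose and none fell. Hoxa9 was at 11, 9.0 and 11.4 CPM in p66High aggressive tumours, against 0.675, 1.06 and 0.936 CPM in p66Low parental tumours (log2 3.56, edgeR adjusted p = 4.10e-05). Hoxa11 was at 1.22, 0.864 and 3.02 CPM in p66High aggressive tumours and had no count in p66Low parental tumours, at least 56.8-fold higher. Hoxa5 (1.81), Hoxa6 (1.5) and Hoxa3 (1.07) rose less. Hoxa2, Hoxa4 and Hoxa7 stayed near or under 1 CPM in both groups and did not pass. Of the other clusters, 1 of 7 tested Hoxc genes rose, Hoxc13, at 0.634, 0.511 and 1.12 CPM in p66High aggressive tumours and without a count in p66Low parental tumours, and none of 7 Hoxb or 3 Hoxd genes passed. Within the Hoxa cluster the rises were highest at the neighbours Hoxa9, Hoxa10 and Hoxa11.

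Hs3st3a1, which adds a sulfate to heparan sulfate chains, was at 17.1, 6.76 and 13.8 CPM in p66High aggressive tumours, against 0.270, 0.162 and 0.364 CPM in p66Low parental tumours (log2 5.51, SE 0.50, edgeR adjusted p = 9.95e-05). The choice of the genes that follow was made with their values in view. Of 4 tested genes of the same enzyme family 3 rose, Hs3st3b1 by 1.78 and Hs3st1 by 2.58. Igfbp4, which binds insulin-like growth factors outside the cell, was at 312, 224 and 316 CPM in p66High aggressive tumours, against 53, 40.7 and 65.2 CPM in p66Low parental tumours (log2 2.42, SE 0.21, edgeR adjusted p = 7.06e-05), and Igfbp2 rose by 2.05. The other tested Igfbp genes, Igfbp3, Igfbp5, Igfbp6 and Igfbp7, did not pass. Rgs2, an inhibitor of G protein signals, was at 486, 370 and 274 CPM in p66High aggressive tumours, against 33.1, 51.1 and 27.6 CPM in p66Low parental tumours (log2 3.34, edgeR adjusted p = 0.000280). The ion channel gene Trpm3 rose by 4.0, to 93.5 ± 7.61 CPM, against 5.77 ± 3.23 CPM in p66Low parental tumours (SD, n = 3 each).

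**Figure D2:**
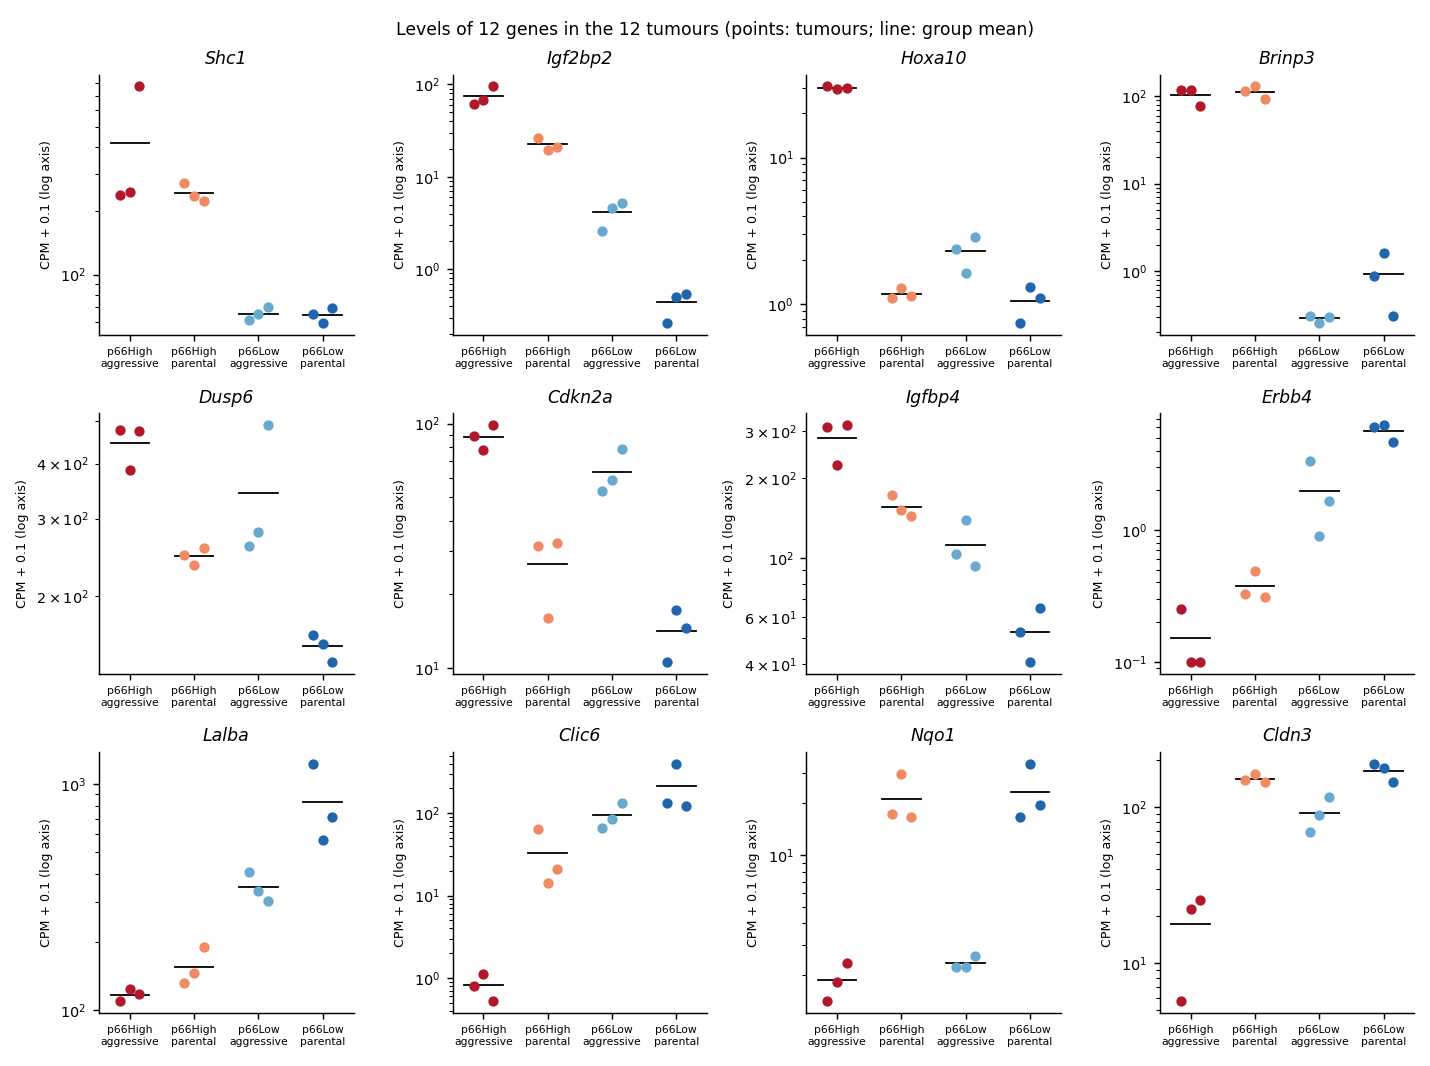
Levels of 12 genes in each of the 12 tumours as CPM + 0.1 on a log axis, with points for tumours and a line for the group mean. From left to right the groups are p66High aggressive, p66High parental, p66Low aggressive and p66Low parental. Hoxa10 is near 30 CPM in the 3 p66High aggressive tumours and under 3 CPM in the other 9, Brinp3 is high in both p66High groups, and Nqo1 is low in both aggressive groups.

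Among the genes with the largest falls was Clic6, a chloride intracellular channel family gene (ENSMUSG00000022949, chromosome 16, 92485736 to 92541243, plus strand). It was at 0.711, 1.02 and 0.431 CPM in p66High aggressive tumours, against 133, 395 and 122 CPM in p66Low parental tumours, and fell by 8.21 on the log2 scale (SE 0.83, edgeR adjusted p = 0.000171). Its means of 32.9 CPM in p66High parental and 94.6 CPM in p66Low aggressive tumours lay between the 2 groups. A related gene, Clic3, fell by 5.24 (edgeR adjusted p = 0.000293). Of the 5 Clic genes tested, a family looked at after its values were seen, 3 fell and 1 rose. Erbb4, a receptor of the ErbB family that binds neuregulins (ENSMUSG00000062209, chromosome 1, 68032186 to 69108059, minus strand), was at 0.152, 0 and 0 CPM in p66High aggressive tumours, against 5.97, 6.13 and 4.58 CPM in p66Low parental tumours. It was almost absent from the aggressive tumours (log2 -6.36, SE 0.79, edgeR adjusted p = 0.000545), and without p66High aggressive replicate 1, the tumour with the remaining counts, the fitted value was -10.83. The mean of Erbb4 was 0.274 CPM in p66High parental and 1.87 CPM in p66Low aggressive tumours.

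Zfp385b, a zinc finger gene, fell by 7.44 (SE 0.64, edgeR adjusted p = 7.19e-05) and Zfp612, another zinc finger gene, by 6.43. Scml2, a Polycomb group gene, was at 0.102, 0.157 and 0.173 CPM in p66High aggressive tumours, against 8.29, 5.15 and 10.3 CPM in p66Low parental tumours (log2 -5.81). Tlx3, a homeobox gene on chromosome 11, had no count in any p66High aggressive tumour and was at 2.16, 1.14 and 2.05 CPM in p66Low parental tumours, at least 52.3-fold lower in the aggressive tumours (edgeR adjusted p = 0.000369). Ranbp17, a nuclear transport receptor gene on the same chromosome, fell by 5.83 (SE 0.37, edgeR adjusted p = 1.37e-05), to 0.415 ± 0.336 CPM against 23.6 ± 2.22 CPM in p66Low parental tumours (SD, n = 3 each). Scnn1b, a subunit of the epithelial sodium channel, fell by 5.04 and Tmem35 by 5.58. The protocadherin gene Pcdh11x fell by 4.84 (edgeR adjusted p = 0.00994) but did not pass without p66High aggressive replicate 1 (edgeR adjusted p = 0.0516).

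Some genes at high levels also changed at least 2-fold. Map4k4, a kinase of stress signalling, was at 902, 701 and 777 CPM in p66High aggressive tumours, against 377, 360 and 372 CPM in p66Low parental tumours (log2 1.10, SE 0.12, edgeR adjusted p = 0.000231). Itpr1, a calcium release channel gene of the endoplasmic reticulum, was at 492, 393 and 460 CPM in p66High aggressive tumours, against 171, 210 and 179 CPM in p66Low parental tumours (log2 1.27, edgeR adjusted p = 0.000282). Col9a1, a collagen chain gene usual in cartilage, rose by 1.08 (edgeR adjusted p = 0.0101). The groups did not overlap for these 3 genes. For 3 others the call was lost when any 1 of several tumours was left out. Slc12a2, a sodium, potassium and chloride cotransporter gene, averaged 2962 ± 557 CPM in p66High aggressive and 1273 ± 541 CPM in p66Low parental tumours (SD, n = 3 each, edgeR adjusted p = 0.0244). It did not pass without p66Low parental replicate 2 (edgeR adjusted p = 0.0744) or 3 (0.0845), nor without p66High aggressive replicate 1 (0.0914) or 2 (0.0503). Spp1, which encodes the secreted protein osteopontin, was at 75.4, 224 and 185 CPM in p66High aggressive tumours, against 404, 1713 and 442 CPM in p66Low parental tumours (log2 -2.40, edgeR adjusted p = 0.0216). It did not pass without p66Low parental replicate 2 (-1.40, edgeR adjusted p = 0.0692), nor without p66High aggressive replicate 1 (0.0782) or 3 (0.0567). Kit, a receptor tyrosine kinase of mammary luminal progenitors and mast cells, was at 516, 568 and 542 CPM in p66High aggressive tumours, against 90.9, 373 and 127 CPM in p66Low parental tumours (log2 1.46, edgeR adjusted p = 0.0387). Kit passed without p66Low parental replicate 2 (2.31) but not without any 1 of the other 5 tumours (edgeR adjusted p = 0.0804 to 0.135).

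The remaining results are ordered by 59 gene lists, of whose members 855 were tested and 87 (10.2%) passed, 42 higher and 45 lower, a share near the 11.1% of all genes. Members were matched by gene symbol. The counts and medians of lists are descriptions with no test.

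**Figure D3:**
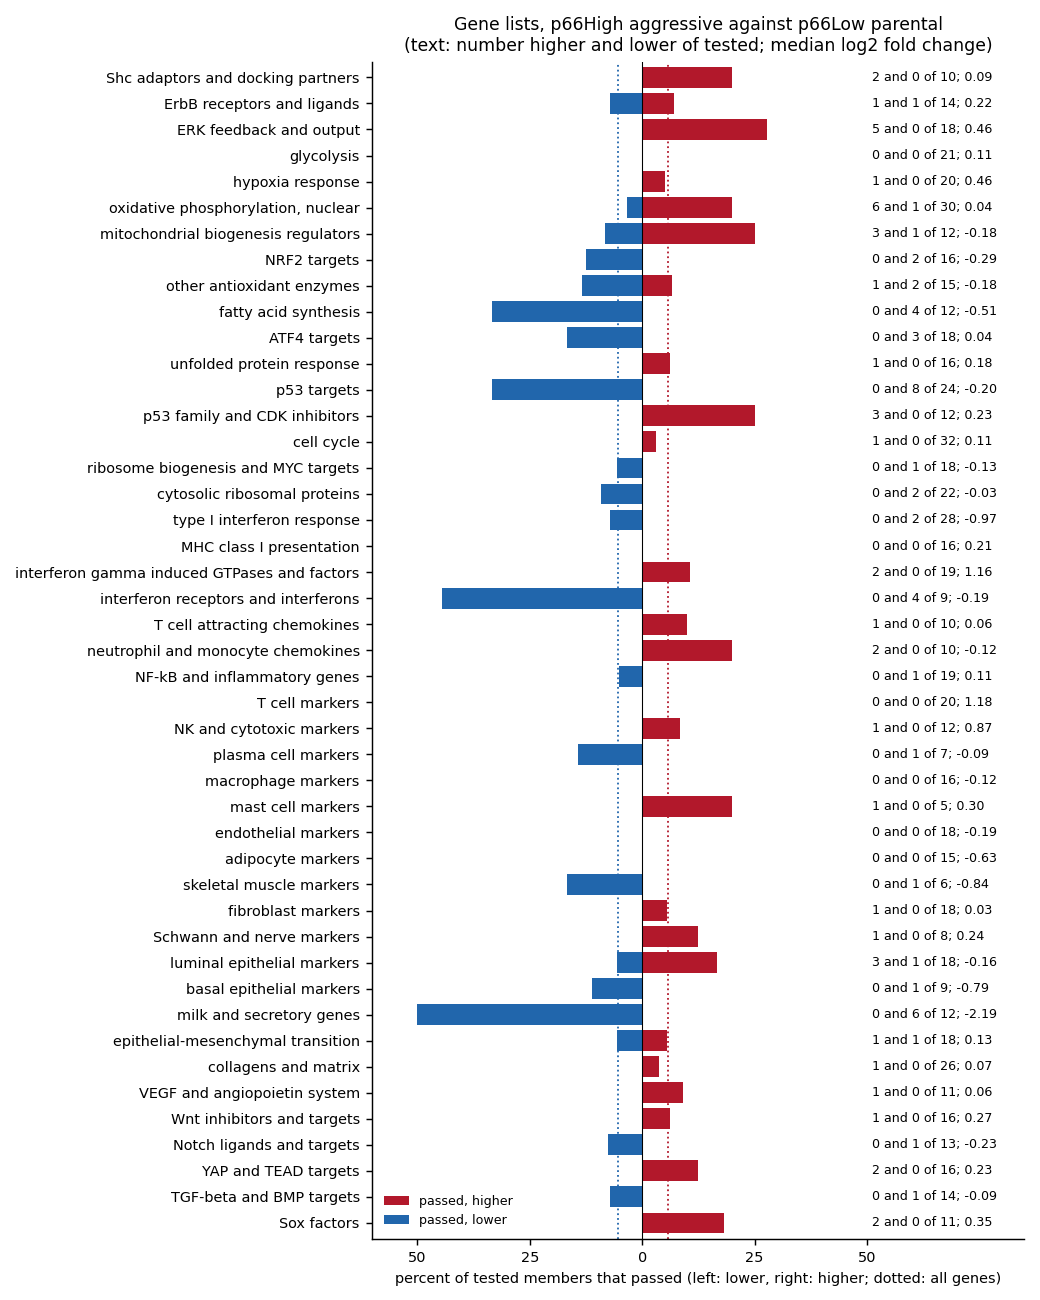
Bars give, for the gene lists named on the vertical axis, the percent of tested members that passed an edgeR adjusted p under 0.05, higher to the right in red and lower to the left in blue, and dotted lines the same over all genes tested (5.72% and 5.33%). The text beside each bar gives the number higher and lower of those tested and the median log2 fold change, p66High aggressive over p66Low parental. Milk genes, interferon receptors, p53 targets and fatty acid synthesis genes reach farthest to the left, and ERK feedback genes farthest to the right.

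Of 18 genes of ERK feedback and output, 5 rose and none fell, with a median log2 fold change of 0.46. Dusp6, a phosphatase that switches ERK off and is itself induced by ERK, was at 477, 387 and 473 CPM in p66High aggressive tumours, against 164, 156 and 142 CPM in p66Low parental tumours. The groups were well apart (log2 1.54, SE 0.20, edgeR adjusted p = 0.000770), and the mean was 247 CPM in p66High parental and 343 CPM in p66Low aggressive tumours. Etv5, an ETS transcription factor gene induced by ERK, was at 349, 259 and 304 CPM in p66High aggressive tumours, against 154, 147 and 154 CPM in p66Low parental tumours (log2 1.00, edgeR adjusted p = 0.000908). Spry1, a receptor tyrosine kinase inhibitor, rose by 1.21 (SE 0.21, edgeR adjusted p = 0.00365). Il17rd, a further feedback inhibitor of this pathway that was chosen after its value was seen, was at 44.9, 30.9 and 26.2 CPM in p66High aggressive tumours, against 7.80, 7.22 and 5.67 CPM in p66Low parental tumours (log2 2.3, edgeR adjusted p = 0.000391). The smaller rises of Etv1 (0.64, edgeR adjusted p = 0.0359) and Spred1 (0.36, edgeR adjusted p = 0.0334) were lost without p66Low parental replicate 3 (0.127 and 0.116), p66High aggressive replicate 1 (0.139 and 0.128) or p66High aggressive replicate 2 (0.0954 and 0.0891). Etv1 was also lost without p66Low parental replicate 2 (0.0880) and Spred1 without p66Low parental replicate 1 (0.0810). Spry2 (0.49), Spry4 (0.71), Etv4 (0.33), Dusp4 (-0.20), Dusp5 (-0.03) and Myc (0.69) did not pass.

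Upstream of ERK, the Shc and docking partner list had 2 of 10 members higher, Shc1 and Shc4, and none lower, with a median of 0.09. Shc4 was at 79.7 ± 13.7 CPM in p66High aggressive and 41.4 ± 5.86 CPM in p66Low parental tumours (SD, n = 3 each, log2 0.94, edgeR adjusted p = 0.0219). It did not pass without p66Low parental replicate 1 (edgeR adjusted p = 0.0582) or 2 (0.0655), nor without p66High aggressive replicate 1 (0.0525) or 3 (0.0725). Among 14 ErbB receptors and ligands, Erbb4 fell and Nrg2, a ligand of Erbb3 and Erbb4, rose by 0.67 (edgeR adjusted p = 0.0302), but Nrg2 did not pass without p66Low parental replicate 2 (0.0844) or 3 (0.0897), nor without p66High aggressive replicate 1 (0.123) or 2 (0.0866). Erbb3 (0.30, edgeR adjusted p = 0.342) and Egfr (-0.23, edgeR adjusted p = 0.522) did not pass.

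Cell cycle inhibitors of the Ink4 locus were higher while some p53 targets were lower. Cdkn2a, which encodes p16Ink4a and p19Arf (ENSMUSG00000044303, chromosome 4, 89274471 to 89294653, minus strand), was at 88.8, 77.6 and 98.4 CPM in p66High aggressive tumours, against 10.5, 17.2 and 14.4 CPM in p66Low parental tumours. The groups were wide apart (log2 2.66, SE 0.28, edgeR adjusted p = 0.000197), and the mean was 26.6 CPM in p66High parental and 63.3 CPM in p66Low aggressive tumours. Its neighbour Cdkn2b, which encodes p15Ink4b, rose by 1.57 (edgeR adjusted p = 0.00157), and Mdm4, an inhibitor of p53 on chromosome 1, by 0.90 (edgeR adjusted p = 0.000515). These were the 3 of 12 tested members of the list of p53 family genes and CDK inhibitors that passed, and Trp53 did not pass (0.43, edgeR adjusted p = 0.294).

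Of 24 p53 targets, 8 fell and none rose, with a median of -0.20. Perp, a desmosome gene of epithelia, was at 106, 91.3 and 121 CPM in p66High aggressive tumours, against 185, 148 and 169 CPM in p66Low parental tumours (log2 -0.66, edgeR adjusted p = 0.00535). Ccng1, which encodes cyclin G1, was at 182, 163 and 163 CPM in p66High aggressive tumours, against 219, 215 and 224 CPM in p66Low parental tumours (log2 -0.37, edgeR adjusted p = 0.00853). Cdkn1a, the p21 gene that halts the cell cycle, was at 13.3, 15.6 and 26.7 CPM in p66High aggressive tumours, against 34.1, 56.0 and 37.6 CPM in p66Low parental tumours (log2 -1.20, edgeR adjusted p = 0.0306). Perp and Ccng1 passed in all 6 fits that left out a tumour, while between 2 and 6 members passed in those fits. Cdkn1a did not pass without p66Low parental replicate 2 (edgeR adjusted p = 0.0903) or 3 (0.0516), nor without p66High aggressive replicate 1 (0.119) or 2 (0.118). The other members that fell were Polk, Rrm2b, Eda2r, Zmat3 and Bax, each lost without at least 1 tumour. Without p66High aggressive replicate 2 all 5 were lost (edgeR adjusted p = 0.0738 to 0.172). Rrm2b was also lost without p66Low parental replicate 1 (0.0871) or p66High aggressive replicate 3 (0.0791). Eda2r was also lost without p66Low parental replicate 2 (0.0517) or 3 (0.0698) or p66High aggressive replicate 3 (0.0720), and Zmat3 without p66Low parental replicate 2 (0.0735) or p66High aggressive replicate 1 (0.0713) or 3 (0.0560). Bax passed only without p66High aggressive replicate 3 (0.0690 to 0.172 without each of the others). Mdm2, the main ubiquitin ligase of p53, did not pass (0.04, edgeR adjusted p = 0.832). The cell cycle list had 1 of 32 members higher, Cenpf, a kinetochore gene on chromosome 1 (0.78, edgeR adjusted p = 0.0420), which was lost in each fit that left out a tumour (edgeR adjusted p = 0.0551 to 0.119).

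Mammary luminal cells switch on milk protein genes in pregnancy and lactation. Of 12 milk and secretory genes, 6 fell and none rose, with a median log2 fold change of -2.19. Promoter sequences are shown for 2 of them that fell because the motif of STAT5, the transcription factor through which prolactin turns on milk genes, can be looked for in them. They come from RefSeq (build GRCm38.p6, the mm10 assembly) and run from 250 bases before to 50 bases after the gene's start, 5′ to 3′ on the gene's strand. Csn2, which encodes beta-casein, lies on the minus strand of chromosome 5 (window chr5:87699376-87699675), and Lalba, which encodes alpha-lactalbumin of lactose synthesis, on the minus strand of chromosome 15 (window chr15:98482634-98482933). Capitals mark a match to TTCNNNGAA, a palindrome and so the same on both strands.
Csn2: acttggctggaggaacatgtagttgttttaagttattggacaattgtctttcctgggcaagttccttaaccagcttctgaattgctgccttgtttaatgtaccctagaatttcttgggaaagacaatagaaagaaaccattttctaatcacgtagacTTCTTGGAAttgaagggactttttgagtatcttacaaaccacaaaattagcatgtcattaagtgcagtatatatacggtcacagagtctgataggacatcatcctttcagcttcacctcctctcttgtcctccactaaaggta
Lalba: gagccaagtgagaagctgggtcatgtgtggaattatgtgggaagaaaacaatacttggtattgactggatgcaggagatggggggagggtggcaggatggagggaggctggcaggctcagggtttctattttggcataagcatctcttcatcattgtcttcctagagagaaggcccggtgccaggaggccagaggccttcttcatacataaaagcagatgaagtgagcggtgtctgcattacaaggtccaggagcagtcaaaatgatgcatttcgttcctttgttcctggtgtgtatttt
The match in Csn2 begins 93 bases before the start, and the Lalba window holds none. The motif was found in 4 of the 10 milk genes that had a RefSeq window, namely Csn2, Csn1s1, Csn1s2a and Glycam1, and in 2726 of all 32851 windows (8.30%). Of these 4 only Csn2 passed the test (edgeR adjusted p = 0.0817 for Csn1s1, 0.183 for Csn1s2a and 0.578 for Glycam1). Wap, Lalba, Cel and Muc1, which fell, had no match in their windows, and sites outside the windows were not looked for. A part of STAT5 in the falls was not tested. Btn1a1, which also fell, had no window. A match is a description of letters and does not show a bound site.

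Lalba was at 110, 124 and 117 CPM in p66High aggressive tumours, against 1227, 566 and 717 CPM in p66Low parental tumours. The aggressive tumours were alike and all lower (log2 -2.84, SE 0.26, edgeR adjusted p = 0.000105), and the mean of Lalba was 155 CPM in p66High parental and 350 CPM in p66Low aggressive tumours. Btn1a1, a protein of the milk fat globule, was at 21.8, 27.6 and 12.3 CPM in p66High aggressive tumours, against 98.9, 159 and 93.1 CPM in p66Low parental tumours (log2 -2.50, edgeR adjusted p = 0.00114). Wap, the whey acidic protein gene, was at 0.685, 0.746 and 0.431 CPM in p66High aggressive tumours, against 13.6, 6.94 and 5.62 CPM in p66Low parental tumours (log2 -3.79, edgeR adjusted p = 0.000715). In each of these genes the groups did not overlap. Csn2 was at 0.203, 0.314 and 0 CPM in p66High aggressive tumours, against 18.6, 3.45 and 4.13 CPM in p66Low parental tumours (log2 -5.59, SE 1.09, edgeR adjusted p = 0.00703), and it did not pass in limma-voom (adjusted p = 0.174). Muc1, a mucin of the apical surface, fell by 1.26 (edgeR adjusted p = 0.0294) and the milk lipase gene Cel by 3.60 (edgeR adjusted p = 0.0355). Muc1 did not pass without p66Low parental replicate 2 (0.0558), nor without p66High aggressive replicate 1 (0.111) or 3 (0.0839), and Cel not without any 1 of the 6 tumours (edgeR adjusted p = 0.0614 to 0.113). The casein genes Csn1s1 (-1.88), Csn1s2a (-1.38) and Csn3 (0.31) did not pass, and Csn3 stayed at 2511, 2571 and 2846 CPM in p66High aggressive tumours, against 2507, 1910 and 1985 CPM in p66Low parental tumours.

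Of the epithelial genes, the keratin gene Krt8 had a log2 fold change of -0.28 and the adhesion gene Epcam of -0.20 (edgeR adjusted p = 0.365 and 0.558), with Epcam at 572, 576 and 723 CPM in p66High aggressive tumours and 773, 776 and 600 CPM in p66Low parental tumours. Of 18 luminal markers 3 rose and 1 fell. Cldn3, a tight junction gene, was at 5.63, 22.2 and 25.2 CPM in p66High aggressive tumours, against 188, 179 and 144 CPM in p66Low parental tumours (log2 -3.28, SE 0.42, edgeR adjusted p = 0.000713). Elf3, an epithelial ETS factor gene on chromosome 1, rose by 1.36 (edgeR adjusted p = 0.00484). Cldn4, another tight junction gene, rose by 1.04 (edgeR adjusted p = 0.0341) but passed in 1 of the 6 fits that left out a tumour, that without p66Low parental replicate 2 (edgeR adjusted p = 0.0738 to 0.0988 in the others). Of 9 tested basal markers 1 fell, Krt15 (-2.93, edgeR adjusted p = 0.0249), which was lost without p66Low parental replicate 2 (0.0812) or p66High aggressive replicate 1 (0.10) or 2 (0.0900).

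Of 12 fatty acid synthesis genes, 4 fell and none rose, with a median of -0.51, and all 12 had a negative log2 fold change. Of the 4, 1 passed in all 6 fits that left out a tumour, Srebf1. Srebf1, the transcription factor that turns these genes on, was at 402, 491 and 506 CPM in p66High aggressive tumours, against 752, 1005 and 872 CPM in p66Low parental tumours (log2 -0.91, SE 0.17, edgeR adjusted p = 0.00598). Fasn, the fatty acid synthase gene, was at 972, 864 and 1027 CPM in p66High aggressive tumours, against 1453, 1273 and 1596 CPM in p66Low parental tumours (log2 -0.59, edgeR adjusted p = 0.0162). The groups did not overlap for either gene. Acacb, an acetyl-CoA carboxylase gene, fell by 1.21 (edgeR adjusted p = 0.0169) and Thrsp, a regulator of lipid synthesis, by 0.89 (edgeR adjusted p = 0.0211). Fasn was lost without p66Low parental replicate 1 (0.0535) or 3 (0.0672) or p66High aggressive replicate 2 (0.0723). Acacb was lost without p66Low parental replicate 1 (0.0780) or p66High aggressive replicate 2 (0.0585) or 3 (0.0683), and Thrsp without p66Low parental replicate 1 (0.0693) or 3 (0.0691) or p66High aggressive replicate 1 (0.0704) or 3 (0.0693). The summed level of 15 adipocyte markers was 218, 75.9 and 23.8 CPM in p66High aggressive tumours and 310, 46.3 and 106 CPM in p66Low parental tumours, with no member past the test, and its part in these falls was not tested.

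Oxidative stress genes gave a mixed picture. Nqo1, a quinone reductase and a standard target of the antioxidant transcription factor NRF2, was at 1.32, 1.73 and 2.24 CPM in p66High aggressive tumours, against 16.6, 33.7 and 19.5 CPM in p66Low parental tumours (log2 -3.74, SE 0.34, edgeR adjusted p = 9.95e-05). Its mean was 21.1 CPM in p66High parental and 2.25 CPM in p66Low aggressive tumours. Pgd, an enzyme of the pentose phosphate pathway on chromosome 4, was at 57.6, 58.1 and 59.96 CPM in p66High aggressive tumours, against 154, 156 and 153 CPM in p66Low parental tumours (log2 -1.40, SE 0.21, edgeR adjusted p = 0.00172). The other 14 of 16 NRF2 targets did not pass, among them Hmox1 (-0.41) and Gclm (-0.21), and the median was -0.29. Among 15 other antioxidant genes, Sod1, the cytosolic superoxide dismutase on chromosome 16, fell to 32.9, 31.1 and 27.5 CPM in p66High aggressive tumours, against 51.1, 54.9 and 49.4 CPM in p66Low parental tumours (log2 -0.76, edgeR adjusted p = 0.00223). Mitochondrial Sod2 (-0.11) and catalase (Cat, 0.07) did not pass. The peroxiredoxin gene Prdx5 fell by 0.56 (edgeR adjusted p = 0.0481) and was lost without any 1 of the 6 tumours (edgeR adjusted p = 0.0754 to 0.174). Its relative Prdx6 rose by 0.42 (edgeR adjusted p = 0.0258) and was lost without p66Low parental replicate 2 (0.0787) or 3 (0.0785) or p66High aggressive replicate 3 (0.101).

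Of 30 nuclear genes of oxidative phosphorylation, 6 rose and 1 fell, with a median of 0.04. The rises of the complex I genes Ndufa10 (0.69) and Ndufs1 (0.57), of the complex II gene Sdhc (0.77) and of the complex IV gene Cox5b (0.51) were all of genes on chromosome 1, described below. Sdhc was at 185, 179 and 194 CPM in p66High aggressive tumours, against 114, 102 and 112 CPM in p66Low parental tumours (edgeR adjusted p = 0.000282). Cox5b (edgeR adjusted p = 0.0239) passed only without p66Low parental replicate 1 (0.0579 to 0.0814 without each of the other tumours). Atp5a1, the ATP synthase alpha subunit gene on chromosome 18, rose by 0.59, to 1638 ± 37.3 CPM against 1085 ± 90.4 CPM in p66Low parental tumours (SD, n = 3 each, edgeR adjusted p = 0.00425). Atp5o, another ATP synthase subunit gene, on chromosome 16, fell by 0.68 (edgeR adjusted p = 0.00315). Of 13 genes of the mitochondrial genome none passed in edgeR, DESeq2 or limma-voom, and 0 had an unadjusted p under 0.05 in edgeR. Among 12 regulators of mitochondrial biogenesis 3 rose and 1 fell. Ppargc1a, which encodes the coactivator PGC-1alpha, was at 19.9, 16.4 and 19.8 CPM in p66High aggressive tumours, against 12.3, 7.83 and 7.75 CPM in p66Low parental tumours (log2 1.01, edgeR adjusted p = 0.00853). The nuclear receptor gene Esrrg (1.74) and the mitochondrial transcription factor gene Tfb2m (0.91), both on chromosome 1, rose, and Gabpa, on chromosome 16, fell by 0.38.

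No glycolysis gene of 21 passed in edgeR (4 had an unadjusted p under 0.05, and 2 passed in DESeq2 and none in limma-voom), with a median of 0.11. Without p66High aggressive replicate 3 that median was -0.23 and 1 member passed, and 2 passed without p66Low parental replicate 2 or without p66High aggressive replicate 1. Of 20 hypoxia genes 1 rose, with a median of 0.46. Vegfa, the vascular growth factor induced by low oxygen, was at 156, 382 and 1135 CPM in p66High aggressive tumours, against 330, 198 and 359 CPM in p66Low parental tumours. Its spread within the p66High aggressive group exceeded the difference (log2 0.91, edgeR adjusted p = 0.379), and without p66High aggressive replicate 3 the hypoxia median was -0.06 and no member passed. Adm, the adrenomedullin gene that had passed, was at 6.78, 17.4 and 41.1 CPM in p66High aggressive tumours, against 4.16, 4.59 and 7.41 CPM in p66Low parental tumours (log2 2.0, edgeR adjusted p = 0.0249), with overlapping ranges. It did not pass without p66Low parental replicate 1 (0.0996) or 2 (0.0762) or p66High aggressive replicate 3 (0.0928). Ldha, which makes lactate, had a log2 fold change of -0.54 (edgeR adjusted p = 0.0655). Among 18 ATF4 targets of amino acid stress 3 fell. Slc7a5, a leucine transporter gene, was at 48.8, 41.2 and 53.9 CPM in p66High aggressive tumours, against 109, 83.4 and 99.2 CPM in p66Low parental tumours (log2 -1.02, edgeR adjusted p = 0.00926). Its partner chain Slc3a2 fell by 0.62 (edgeR adjusted p = 0.0327) but was lost without p66Low parental replicate 2 (0.0883) or p66High aggressive replicate 1 (0.122) or 2 (0.0946). Cth, an enzyme of cysteine synthesis, fell by 1.19 (edgeR adjusted p = 0.0159) but was lost without p66Low parental replicate 1 (0.0739) or p66High aggressive replicate 1 (0.0684) or 2 (0.0540).

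Interferons act through paired receptor chains, and the genes of 4 of these chains lie side by side on mouse chromosome 16. Of 9 tested members of the list of interferon receptors and interferons, which also holds the kinases Jak1, Jak2 and Tyk2, those 4 fell and none rose. Ifnar1 was at 53.9, 51.1 and 47.8 CPM in p66High aggressive tumours, against 66.6, 83.3 and 69.96 CPM in p66Low parental tumours (log2 -0.52, edgeR adjusted p = 0.00462). Ifnar2, the second chain of the type I receptor, fell by 0.76 (edgeR adjusted p = 0.00401) and Ifngr2, a chain of the interferon gamma receptor, by 0.62 (edgeR adjusted p = 0.000996). Il10rb fell by 0.62 (edgeR adjusted p = 0.0252) but was lost without p66Low parental replicate 1 (0.0909) or 2 (0.0639) or p66High aggressive replicate 1 (0.0864) or 3 (0.0917). Ifngr1, on another chromosome, did not pass (-0.03). Of 28 genes of the type I interferon response 2 fell, the antiviral genes Mx1 (-2.28) and Mx2 (-2.19), which lie on chromosome 16 as well, and the median of the list was -0.97, or -0.55 without p66High aggressive replicate 3. Mx1 was at 2.06, 2.87 and 0.431 CPM in p66High aggressive tumours, against 9.02, 13.9 and 3.46 CPM in p66Low parental tumours (edgeR adjusted p = 0.0266). Mx1 was lost without p66Low parental replicate 1 (0.0683) or 2 (0.0819) or p66High aggressive replicate 1 (0.0760) or 3 (0.0533), and Mx2 (edgeR adjusted p = 0.0438) passed only without p66Low parental replicate 3 (0.0632 to 0.116 without each of the other tumours). Isg15 (-1.17) and Ifit1 (-1.46), from chromosomes other than 16, did not pass.

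Genes induced by interferon gamma split the p66High aggressive group. All 19 members of the list had a positive log2 fold change, with a median of 1.16, and 2 passed, the GTPase genes Tgtp1 (3.43, edgeR adjusted p = 0.0443) and Tgtp2 (2.79). Tgtp1 was at 59.8, 58.0 and 1.21 CPM in p66High aggressive tumours, against 4.62, 5.28 and 1.38 CPM in p66Low parental tumours. Replicates 1 and 2 were above every p66Low parental tumour, and replicate 3 was below every one. Set against the p66Low parental mean, the median of the list was 1.61, 1.79 and -1.17 log2 in the p66High aggressive tumours, against 0.42, 0.51 and -0.81 log2 in the p66Low parental tumours. Without p66High aggressive replicate 3, 13 of the 19 passed, all higher, with a median of 1.66. In that fit 1600 of all 19995 genes tested passed, 863 of them higher. The 13 included Tgtp1 (4.0, edgeR adjusted p = 0.00194). They also included the guanylate-binding protein genes Gbp2 (1.74, edgeR adjusted p = 0.00665) and Gbp4 (2.52, edgeR adjusted p = 0.00665). With replicate 3 kept, Tgtp1 and Tgtp2 were lost without any 1 of the 3 p66Low parental tumours or p66High aggressive replicate 1 or 2 (edgeR adjusted p = 0.0808 to 0.161). The chemokine gene Cxcl9, another target of interferon gamma, followed the same split, with 21.3, 16.2 and 0.561 CPM in p66High aggressive tumours, against 1.78, 2.11 and 0.442 CPM in p66Low parental tumours (log2 3.19, edgeR adjusted p = 0.0440). It passed only without p66High aggressive replicate 3 (0.0740 to 0.148 without each of the other tumours). Replicates 1 and 2 share the title number 185 and may not be independent. With tumours that share a number summed, no member of the list passed, and Tgtp1, Tgtp2 and Cxcl9 were lost (edgeR adjusted p = 0.146, 0.167 and 0.145).

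**Figure D4:**
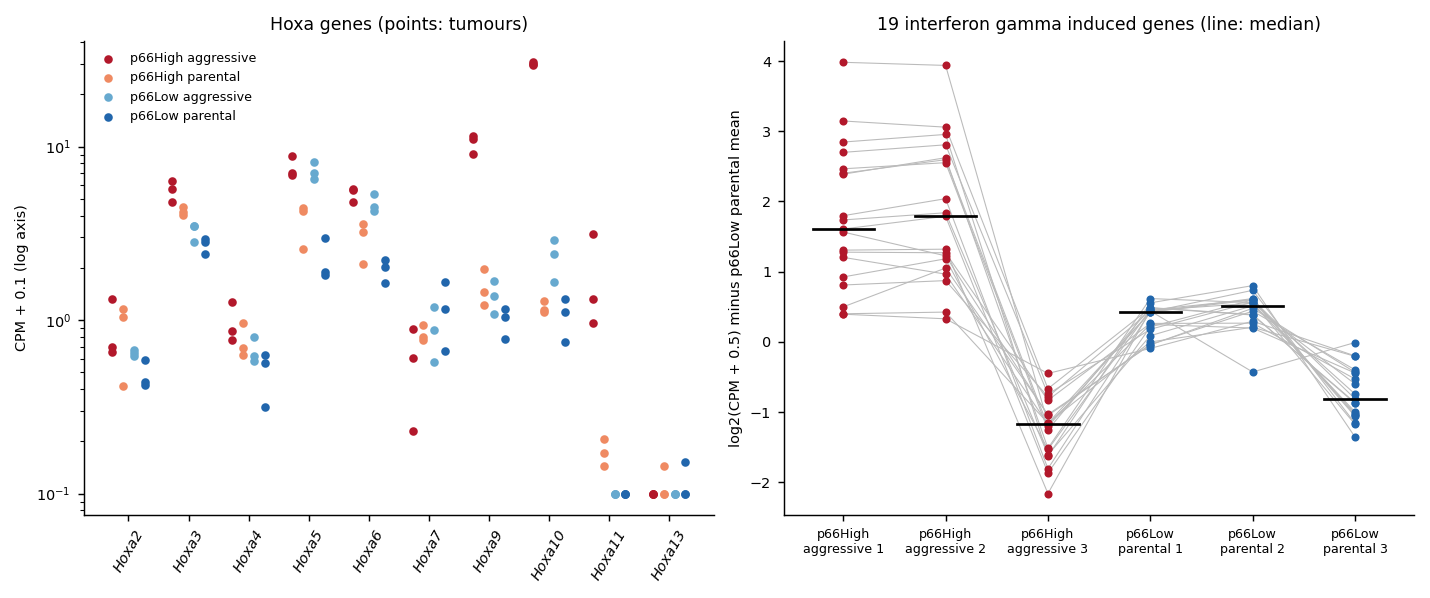
Left, levels of 10 Hoxa genes as CPM + 0.1 on a log axis in each tumour of the 4 groups, with p66High aggressive in dark red and p66Low parental in dark blue. Hoxa9, Hoxa10 and Hoxa11 are above every other tumour in the 3 p66High aggressive tumours. Right, log2(CPM + 0.5) of 19 genes induced by interferon gamma minus their p66Low parental mean, with 1 point for each gene, grey lines joining a gene and black bars for the median. The medians are 1.61, 1.79 and -1.17 in the p66High aggressive tumours and 0.42, 0.51 and -0.81 in the p66Low parental tumours.

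Of 10 tested chemokine genes of neutrophils and monocytes, 2 rose and none fell, with a median of -0.12. Cxcl5, a chemokine that attracts neutrophils, was at 6.32, 5.70 and 6.17 CPM in p66High aggressive tumours, against 0.270, 0.162 and 0.260 CPM in p66Low parental tumours (log2 4.67, SE 0.36, edgeR adjusted p = 4.04e-05). Cxcl1 was at 4.70, 5.07 and 6.30 CPM in p66High aggressive tumours, against 0.756, 1.95 and 1.46 CPM in p66Low parental tumours (log2 1.96, edgeR adjusted p = 0.00190). The inflammatory cytokine gene Il1b fell by 1.82 (edgeR adjusted p = 0.00889), the 1 of 19 NF-kB and inflammatory genes that passed. No neutrophil marker of 7 tested passed in edgeR (2 had an unadjusted p under 0.05, and 1 passed in DESeq2 and none in limma-voom), and S100a8 was at 0.685, 1.10 and 0.906 CPM in p66High aggressive tumours, against 2.65, 3.12 and 2.24 CPM in p66Low parental tumours (edgeR adjusted p = 0.135).

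Few markers of other cells in the tumour passed the test. In bulk tumours, fewer cells of a type and less RNA per cell cannot be told apart. None of 20 T cell, 11 B cell, 16 macrophage, 12 dendritic cell, 18 endothelial, 12 pericyte or 15 adipocyte markers passed in edgeR, and 0, 0, 0, 3, 0, 0 and 0 of them had an unadjusted p under 0.05. Without p66High aggressive replicate 1, 2 dendritic cell markers passed. The summed T cell marker level was 26.1, 21.5 and 10.3 CPM in p66High aggressive tumours and 14.6, 14.8 and 13.9 CPM in p66Low parental tumours, so replicate 3 of the aggressive group was again lowest. The summed NK and cytotoxic level was 9.62, 4.24 and 0.906 CPM in p66High aggressive tumours and 2.27, 3.77 and 1.66 CPM in p66Low parental tumours. The summed endothelial level was 303, 319 and 198 CPM in p66High aggressive tumours and 296, 302 and 296 CPM in p66Low parental tumours, and that of fibroblasts 1440, 1768 and 894 CPM in p66High aggressive and 1183, 1321 and 1447 CPM in p66Low parental tumours. Their part in the interferon gamma values was not tested. By DESeq2 and by limma-voom none of the T cell, B cell, macrophage, dendritic cell, endothelial, pericyte or adipocyte markers passed either. Of 18 fibroblast markers 1 passed in edgeR, Twist1, described below, and of 12 NK and cytotoxic markers 1, Ncr1. Mb, the myoglobin gene of muscle, fell by 1.33 (edgeR adjusted p = 0.0100), the 1 of 6 skeletal muscle markers that passed. Other marker genes passed less firmly. Ncr1, a receptor gene of NK cells, rose by 2.55 (edgeR adjusted p = 0.0346) but passed only without p66High aggressive replicate 3 (0.0602 to 0.184 without each of the others). Sdc1, a proteoglycan gene of plasma and epithelial cells, fell by 0.45 (edgeR adjusted p = 0.0204) and was lost without p66High aggressive replicate 1 (0.0828) or 2 (0.0781). Ncmap, a myelin gene, rose by 0.86 (edgeR adjusted p = 0.0127) and was lost without p66Low parental replicate 1 (0.0575) or p66High aggressive replicate 1 (0.0548).

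In each of the lists of invasion, matrix and developmental signals described here, 1 or 2 members passed. In the list of epithelial-mesenchymal transition, Cdh2, which encodes N-cadherin, fell to 1.32, 1.57 and 1.81 CPM in p66High aggressive tumours, against 3.24, 7.47 and 5.17 CPM in p66Low parental tumours (log2 -1.76, edgeR adjusted p = 0.00774). Twist1, a transcription factor that represses epithelial genes, rose by 0.55 (edgeR adjusted p = 0.0117) but was lost without p66Low parental replicate 1 (0.0591) or p66High aggressive replicate 3 (0.0515). Wif1, a secreted Wnt inhibitor, was at 7.99, 6.60 and 13.6 CPM in p66High aggressive tumours, against 0.0540, 0.731 and 0.988 CPM in p66Low parental tumours (log2 4.0, edgeR adjusted p = 0.00219), and its mean in p66High parental tumours was 12.0 CPM. Hey2, a Notch target, fell by 2.97 (edgeR adjusted p = 0.00315), and Ltbp2, of the TGF-beta list, by 0.96 (edgeR adjusted p = 0.00543). Col11a1, a fibrillar collagen chain gene, was at 1396, 1318 and 1816 CPM in p66High aggressive tumours, against 866, 796 and 975 CPM in p66Low parental tumours (log2 0.78, edgeR adjusted p = 0.00575). Angpt2, which loosens vessel walls, was at 10.7, 27.4 and 15.2 CPM in p66High aggressive tumours, against 6.86, 6.37 and 7.80 CPM in p66Low parental tumours (log2 1.34, edgeR adjusted p = 0.0113), and its value was 0.88 without p66High aggressive replicate 2. Nuak2, a YAP target on chromosome 1, rose by 0.94, and Sox6, a transcription factor gene, by 1.34 (edgeR adjusted p = 0.00212). Amotl1, a regulator of YAP, rose by 0.43 (edgeR adjusted p = 0.0194) but was lost without p66Low parental replicate 1 (0.0512) or p66High aggressive replicate 1 (0.0704) or 3 (0.0501).

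Protein synthesis and quality control genes mostly did not pass. Atf6, a sensor of unfolded proteins on chromosome 1, rose by 0.42 (edgeR adjusted p = 0.00198), the 1 of 16 unfolded protein response genes that passed. Of 22 cytosolic ribosomal protein genes 2 fell, Rpl3 by 0.46 (edgeR adjusted p = 0.0380) and Rps18 by 0.41 (edgeR adjusted p = 0.0249). Both were lost without p66Low parental replicate 3 (0.147 and 0.104), p66High aggressive replicate 1 (0.130 and 0.0704) or p66High aggressive replicate 2 (0.148 and 0.107), and Rpl3 also without p66Low parental replicate 1 (0.0544). None of 22 cholesterol synthesis, 11 serine and one-carbon, 16 MHC class I, 10 MHC class II, 12 checkpoint, 15 complement or 15 metalloproteinase and inhibitor genes passed in edgeR, DESeq2 or limma-voom, and 1, 0, 1, 0, 0, 1 and 1 of them had an unadjusted p under 0.05 in edgeR. Without p66High aggressive replicate 3, 1 MHC class I and 1 MHC class II member passed, with list medians of 0.47 and 0.46, against 0.21 and -0.01 with it. The MHC class I member was Nlrc5, a transcriptional activator of these genes (2.50, edgeR adjusted p = 0.0177). The checkpoint median was 0.53 without that tumour and 0.09 with it, and without p66Low parental replicate 2, 2 cholesterol synthesis genes passed.

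Many of the changes of modest size lay in blocks along chromosomes. Positions and gene order are those of GENCODE M21 on mm10. On chromosome 1, 354 of 1133 tested genes rose and 18 fell (32.8% passed, against 11.1% of all genes), with a median of 0.36. For genes of at least 1 CPM, set against the p66Low parental mean, the median of this chromosome was 0.37, 0.41 and 0.36 log2 in the p66High aggressive tumours, against -0.01, 0.03 and -0.02 log2 in the p66Low parental tumours. It was 0.43, 0.43 and 0.44 in p66High parental and -0.02, -0.01 and 0.03 in p66Low aggressive tumours, so the median stood higher in the tumours of both p66High groups. Not every gene of chromosome 1 named above was marked as such, and Igfbp2 is one that was not. On chromosome 15, 115 of 714 tested genes fell and 18 rose (18.6% passed), with a median of -0.27, and the tumour medians were -0.24, -0.33 and -0.20 log2 in p66High aggressive, against 0.12, -0.15 and 0.05 log2 in p66Low parental tumours. The medians of chromosome 15 were also below 0 in the p66High parental (-0.37, -0.39 and -0.37) and p66Low aggressive tumours (-0.32, -0.27 and -0.27).

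A pair of shorter blocks had sharp edges, and their end genes were chosen after the values were seen. On chromosome 16, from Mrpl39 to C2cd2 (84717576 to 97962598), 57 of 93 tested genes fell and 5 rose, with a median of -0.72 and an interquartile range of -0.94 to -0.53. Set against the p66Low parental mean, the median of this block was -0.73, -0.60 and -0.78 log2 in p66High aggressive tumours, against -0.02, 0.08 and -0.02 log2 in p66Low parental tumours. It was 0.11, 0.04 and 0.07 in p66High parental and 0.02, -0.03 and -0.01 in p66Low aggressive tumours. The 3 p66High aggressive tumours were thus the ones with a median below -0.1. The block holds Ifnar1, Ifnar2, Ifngr2, Il10rb, Mx1, Mx2, Sod1, Gabpa, Atp5o and Clic6 of the genes described above. Other members with known roles are Ets2, an ETS factor gene (-0.78), Dyrk1a, a kinase gene (-0.64), and Gart, an enzyme of purine synthesis (-0.99). Clic6 (-8.21) fell far below the level of its neighbours, and Tmprss2, a protease gene near the end of the block, rose by 2.41 (edgeR adjusted p = 0.00121). The genes just before the block, from Gbe1 to Btg3, went the other way, with 8 of 15 higher, none lower and a median of 1.05. Among them Cxadr, a cell adhesion receptor gene, was at 220, 246 and 324 CPM in p66High aggressive tumours, against 68.2, 75 and 63.9 CPM in p66Low parental tumours (log2 1.93, edgeR adjusted p = 0.000119).

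On chromosome 4, in a block near its end up to Morn1 (155145505), 51 of 83 tested genes fell and 2 rose, with a median of -0.82. The 51 genes from Ski to Samd11 that follow had 3 lower, none higher and a median of 0.02, and the 14 genes from Fv1 to Fbxo2 before it a median of 0.14. The median of the block was -0.84, -0.76 and -0.77 log2 in p66High aggressive tumours, against 0.06, -0.02 and -0.01 log2 in p66Low parental tumours. It was -0.78, -0.78 and -0.77 in p66High parental and -0.12, -0.08 and -0.01 in p66Low aggressive tumours, so all 6 p66High tumours had the lower level. Pgd lies in it, as do Mtor, the growth kinase gene (-0.67), Park7, an oxidative stress gene (-0.84), and Srm, an enzyme of polyamine synthesis (-1.21). Rbp7, a retinol-binding protein gene in the block, fell much further than its neighbours, to 8.07, 6.32 and 10.5 CPM in p66High aggressive tumours, against 147, 69.9 and 177 CPM in p66Low parental tumours (log2 -3.99, edgeR adjusted p = 0.000111). Its mean was 9.80 CPM in p66High parental and 5.81 CPM in p66Low aggressive tumours.

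**Figure D5:**
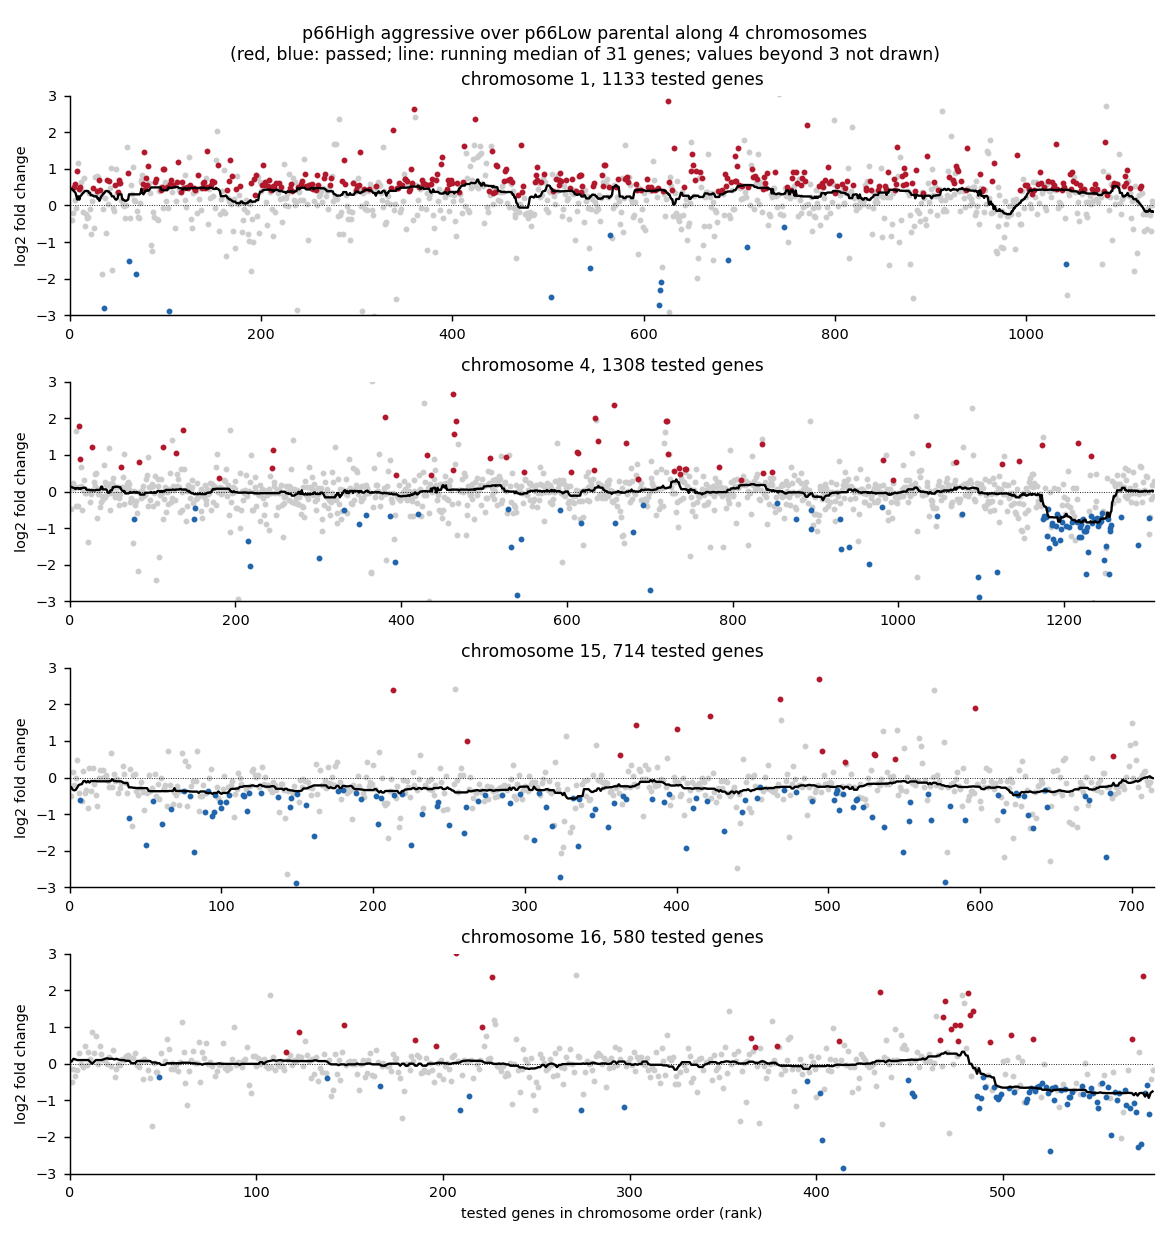
Each point is a tested gene of chromosome 1, 4, 15 or 16, placed by its rank along the chromosome, with the log2 fold change, p66High aggressive over p66Low parental, on the vertical axis. Red and blue points passed as higher or lower, the black line is the running median of 31 genes, and values beyond 3 are not drawn. The line stays above 0 over most of chromosome 1, below 0 along chromosome 15, and steps down near the end of chromosomes 4 and 16, returning to 0 on chromosome 4.

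With chromosomes 1 and 15 and the last 20 Mb bins of chromosomes 4 and 16 set aside, 1508 of 17183 genes passed (8.78%), 724 higher and 784 lower. Of 248 bins of 10 Mb with at least 20 tested genes, 19 had at least 25% of their genes past the test, and 13 of these were on chromosome 1. In the bin of chromosome X from 130 to 140 Mb, 15 of 68 tested genes fell and 1 rose, with a median of -0.20. Tceal8, a transcription elongation factor family gene, was at 5.0 CPM on average in p66High aggressive and 34.8 CPM in p66Low parental tumours (log2 -2.80, edgeR adjusted p = 4.04e-05), while its neighbour Bex2 rose by 3.27 (edgeR adjusted p = 0.00296).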

How the data were processed

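Libraries were stranded and came from total RNA of bulk tumours after ribosomal RNA removal, per the labels' protocols. The values used are raw read counts per gene, deposited by the authors for 12 tumours in 1 table. Trimmomatic 0.32, STAR 2.3.0e, featureCounts 1.4.4 and the mm10 genome are named in the submitters' processing notes, while strand setting, annotation and treatment of multiply mapped reads were not stated there, so overlapping genes and near-identical copies are uncertain.

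Genes were filtered with filterByExpr, scaled by TMM and tested with edgeR 4.0.16 (quasi-likelihood F-test, R 4.3.3) over all 12 tumours in 4 groups, with the contrast of p66High aggressive minus p66Low parental and Benjamini-Hochberg adjustment at 0.05. The SE is the log2 fold change divided by the square root of F. DESeq2 1.42.0 and limma 3.58.1 (voom), other scalings, filters and sample sets, and fits without each tumour were alternatives. The script was tested on simulated counts. A bound for a group without counts used 3 counts over the group. Positions and gene order came from GENCODE M21.

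The members and lists were chosen with earlier results of these data known. Named genes were Shc1 and Erbb2, the 12 highest and 12 lowest protein-coding genes among those that passed without overlap at 2 CPM or more, genes without counts in 1 group, the 8 most abundant with a 2-fold change, and up to 4 members that passed plus the first 2 in each list. Other list members given with values, the Hoxa, Hs3st and Igfbp relatives, Rgs2, Trpm3, Il17rd, Gm26924 and the genes named for their chromosome block were chosen after their values were seen. Some genes that the rule names are not reported here.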

Additional observations from a re-analysis of the deposited data

How the results depend on the processing

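No gene that passed changed direction under any alternative. The 2141 genes past the threshold (1108 higher, 1033 lower) became 196 (85 higher, 111 lower) when a log2 fold change of at least 1 was tested. Leaving out 1 tumour at a time gave 1348 to 2075 genes, 679 to 1055 higher and 620 to 1020 lower. The fewest were without p66High aggressive replicate 2 (1348), p66Low parental replicate 1 (1360) and p66High aggressive replicate 1 (1423). DESeq2 gave 2967 genes, limma-voom 1943, the 6 tumours alone 1710 and summing tumours that share a title number 1496. By library size alone 57.1% of the calls were higher, against 51.8%. Of the gene lists, milk genes had 3 lower by limma-voom (6 by edgeR), the type I interferon list 4 by DESeq2 and 0 by limma-voom (2 by edgeR), and the interferon gamma list 0 by limma-voom (2 by edgeR). The 224 named genes and list members followed here include many that had not passed, such as Vegfa and Erbb2, and had no call to lose. Of those that had passed, 11 lost their call in limma-voom and 27 when tumours that share a title number were summed. Another setting, without 3 tumours of the other groups that hold lymph node genes, lost 23. With the 6 tumours alone 19 were lost, and 86 when a log2 fold change of at least 1 was tested. Leaving out 1 tumour lost 21 to 33. The base of all these losses is the genes that had passed, which are fewer than 224. The cause of these losses was not tested, and the fits with tumours summed, set aside or left out also held fewer tumours. Genes at a few counts, such as Hoxc13, are limited by depth. No paired analysis was possible because the 2 groups share no number in their titles.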
